A study of Mus musculus with 12 samples.

Results

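Liver X receptors (LXRs) and the genes through which they move cholesterol out of macrophages were followed in airway macrophages (AMs) given bacterial lipopolysaccharide (LPS). The count table holds 20551 genes. With earlier results of these data known, 7 of them were chosen by name as members of the known pathway. They are the receptors Nr1h2 (LXRβ) and Nr1h3 (LXRα), the lipid exporters Abca1 and Abcg1, the apolipoprotein gene Apoe, the ubiquitin ligase gene Mylip and the phospholipid-remodelling enzyme gene Lpcat3. RNA came from C57BL/6 mice, 6 weeks old per the methods, either Scnn1b-transgenic (Scnn1b-Tg), which overexpress a sodium channel subunit in airway epithelium from the club cell secretory protein promoter and develop mucus obstruction, or wild-type (WT) littermates. A pool held lavage cells from 3 to 4 animals, and each of 6 pools (WT 16, 17 and 18, Scnn1b-Tg 17, 18 and 19) was split between medium alone and 100 ng/ml of Pseudomonas aeruginosa LPS for 12 h. This gave 12 libraries in 4 groups of 3, named by genotype and treatment.

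LXRs are nuclear receptors that are switched on by oxysterols, oxidised forms of cholesterol, and that bind DNA together with a retinoid X receptor (RXR). When a macrophage takes up more cholesterol than it can use, as AMs do when they clear surfactant and dead cells, active LXRs raise the genes for its export and lower its uptake. Inflammatory signals through Toll-like receptors are known to interfere with LXR target genes in cultured macrophages.

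The genes lie on 6 chromosomes of the mm10 build, and their reads were counted over exons. Nr1h3 (ENSMUSG00000002108) lies at chr2:91184061-91202834 and Nr1h2 (ENSMUSG00000060601) at chr7:44549616-44553951, both on the minus strand. Abca1 (ENSMUSG00000015243) lies at chr4:53030787-53159895 on the minus strand, and Abcg1 (ENSMUSG00000024030) at chr17:31057675-31117988 on the plus strand. Apoe (ENSMUSG00000002985) lies at chr7:19696109-19699188 on the minus strand, Mylip (ENSMUSG00000038175) at chr13:45389742-45412022 and Lpcat3 (ENSMUSG00000004270) at chr6:124663027-124704418, the last 2 on the plus strand.

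The promoter of Abca1 is shown because Abca1 was the exporter that rose with LPS and because it is a textbook LXR target. The stretch below holds the 250 bases before the RefSeq start, at chr4:53159896-53160145 of GRCm38.p6 on the minus strand, read 5′ to 3′ along the gene. Capitals mark a loose match to an LXR element, a direct repeat of AGGTCA with 4 bases between the copies (DR4), which lies on the strand opposite to the gene.
Abca1 promoter: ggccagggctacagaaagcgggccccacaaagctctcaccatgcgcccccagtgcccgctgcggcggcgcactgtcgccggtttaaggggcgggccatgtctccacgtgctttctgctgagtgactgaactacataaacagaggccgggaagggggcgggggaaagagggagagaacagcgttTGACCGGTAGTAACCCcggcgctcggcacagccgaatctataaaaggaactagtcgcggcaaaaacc
Read on the opposite strand, the capitals hold 2 mismatches in the left copy and 1 in the right copy, and they span positions -67 to -52 from the start. A stricter search, with at most 1 mismatch in each copy on either strand, matched none of the 9 promoter windows of 300 bases on hand for 6 of the 7 genes, and it matched 1.75% of 32851 mouse windows. The looser search that found the Abca1 element, with at most 3 mismatches in all and 2 per copy, was set after the sequence had been read. It matched no other window of these genes and 18.8% of all windows. The NF-κB motif, GGGA and TTCC with any 2 bases between them, searched without mismatch on both strands, was in none of the 9 windows and in 1.47% of all. No window was on hand for Abcg1.

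Library totals were 48.19 to 60.9 M estimated counts, with 14918 to 16165 genes detected per library. All 8 genes of an LPS check list, among them Tnf and Cxcl1, rose in both genotypes. AM markers such as Chil3, Itgax and Pparg summed to 14251 to 20459 CPM (counts scaled to a common library size) in medium and 9299 to 16259 CPM with LPS, where 6 of 10 fell and 2 rose in WT and 7 fell and 2 rose in Scnn1b-Tg. Siglecf, which marks AMs, was at 103 to 128 CPM in medium and 5.08 to 13.5 CPM with LPS. Marker lists of other cells summed to at most 18.5 CPM for interstitial macrophages, 2.49 for monocytes, 37.8 for neutrophils, 1.94 for lymphocytes and 129 for epithelium. Scnn1b itself was at or under 0.755 CPM in every library, so the transgene, which is not driven in macrophages, left no check on the genotype labels. The labels give 2 batches, which per the methods are dates of library preparation (WT 16, WT 17 and Scnn1b-Tg 17 in batch 1, the other pools in batch 2), and the batch was a term in the model.

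All 7 genes were detected in all 12 libraries, but at very different levels. In CPM per kilobase of merged exons, used to compare genes of unlike length, the order in WT medium was Abcg1 (42 ± 2.14, SD, n = 3), Nr1h3 (31.4 ± 4.83), Nr1h2 (29.4 ± 3.32), Lpcat3 (24.4 ± 0.835), Mylip (12.1 ± 0.691), Apoe (4.67 ± 1.86) and Abca1 (1.71 ± 0.377). The libraries of Nr1h3 and Nr1h2 overlapped, and no other neighbours in that order did. The order rests on the length used. Merged exons were 1.678 times as long as the longest transcript for Nr1h2, 1.267 times for Nr1h3 and 1.01 times for Abca1. In CPM without a length, Nr1h2 (98.5) was above Nr1h3 (78.9) in WT medium. In Scnn1b-Tg medium the order per kilobase was the same, with Abcg1 at 49.9 ± 6.18 and Abca1 at 1.8 ± 0.657 CPM per kilobase, and Apoe and Abca1 overlapped as well as the receptors. With LPS the order was another one. Nr1h2 was highest in both genotypes (36.9 ± 3.04 in WT and 41.3 ± 4.81 in Scnn1b-Tg), Nr1h3 followed, Abcg1 and Lpcat3 overlapped behind them, Mylip overlapped with Abca1, and Apoe was lowest (2.04 ± 0.533 and 2.06 ± 0.487). Over all libraries the mean level of Abcg1, 32.3 CPM per kilobase, lay at percentile 88.6 of the 13537 genes with a length among those tested, and that of Apoe, 3.41, at percentile 48.4. Apoe and Abca1 were thus the low transcripts of the set, near the middle of all genes.

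LPS split the pathway: Abca1 rose about 4-fold while Abcg1 fell in AMs of both genotypes. Apoe fell in both as well, but its call was lost in 7 of 22 alternatives to the model and libraries in each genotype. In WT AMs, 1 of the 7 genes rose (Abca1), 4 fell (Abcg1, Apoe, Mylip and Lpcat3) and 2 did not pass the test (Nr1h2 and Nr1h3), at an adjusted p threshold of 0.05 in edgeR. Over all 13729 genes tested, 31.8% were called in this comparison, 15.5% higher and 16.2% lower. In Scnn1b-Tg AMs, 2 rose (Abca1 and Nr1h2), 2 fell (Abcg1 and Apoe) and 3 did not pass, where 38.1% of all genes were called, 19.3% higher and 18.7% lower. The median log2 fold change of the 7 genes was -0.32 in WT and -0.17 in Scnn1b-Tg, beside 0.00 and -0.02 over all genes tested. The libraries of the 2 treatments did not overlap for 2 higher and 3 lower members in WT (18.7 and 20% of all genes) and for 2 higher and 1 lower in Scnn1b-Tg (22.3 and 21.5%). At an unadjusted p under 0.05, 6 of the 7 passed in WT (40.8% of all genes) and 4 in Scnn1b-Tg (45.8%). The WT count was 3 without the medium library of pool 18, without the LPS library of pool 16 and without the LPS library of pool 18, and the Scnn1b-Tg count was 2 without the medium library of pool 17. In bulk RNA, fewer cells that carry a transcript and less of it per cell cannot be told apart.

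**Figure D1:**
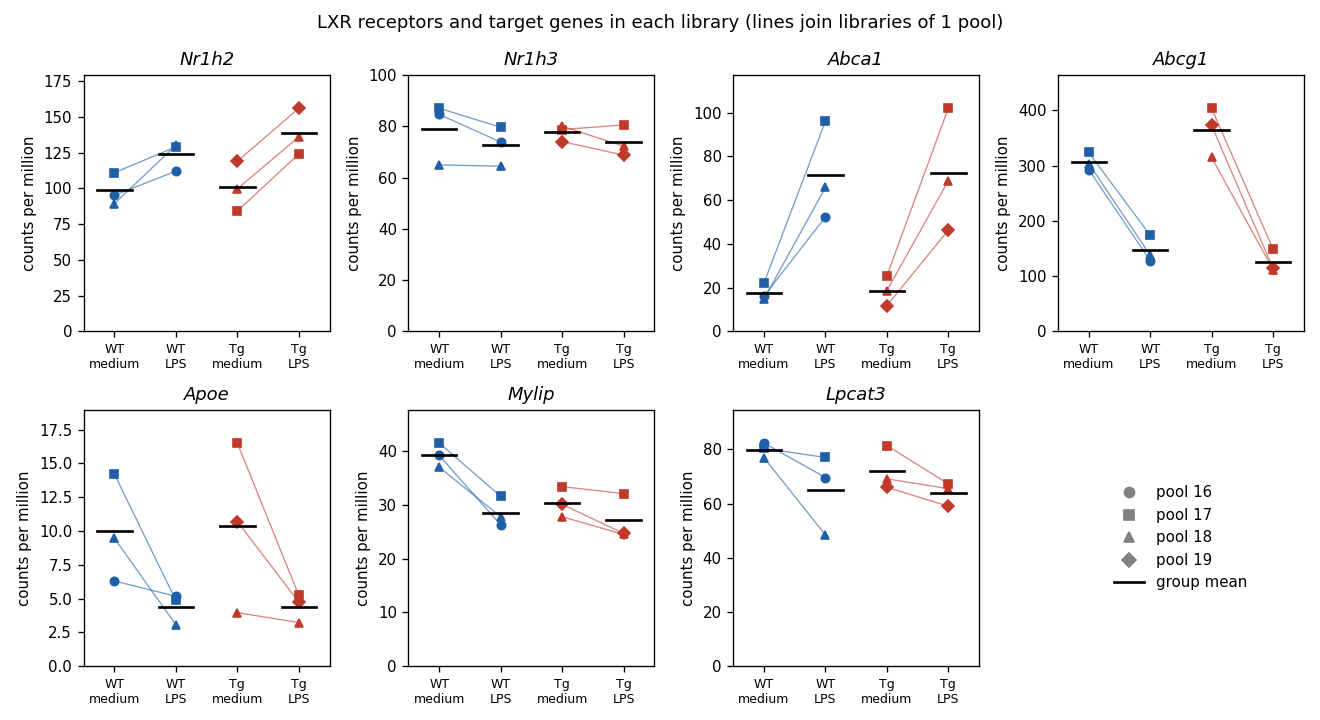
Each panel plots 1 gene in the 12 libraries, in CPM on an axis that starts at 0; blue is WT, red is Scnn1b-Tg (Tg), lines join the medium and LPS libraries of 1 pool, and black bars are group means. Abca1 rises and Abcg1 falls along all 6 lines, Apoe falls from very unequal starting levels, and Nr1h3 stays between 64.5 and 87.1 CPM.

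The receptors differed in their response. Nr1h2, the LXR found in most tissues, was at 95.2, 111 and 89.4 CPM in WT medium (pools 16, 17 and 18) and at 112, 129 and 130.1 CPM in the same pools with LPS. In Scnn1b-Tg AMs it was at 84.2, 99.7 and 119 CPM in medium (pools 17, 18 and 19) and at 124, 136 and 156 CPM with LPS. Every LPS library was above every medium library of its genotype, and the gain was 0.22 to 0.55 on the log2 scale over the 6 pools. The fitted log2 fold change was 0.46 ± 0.13 (SE) in Scnn1b-Tg (edgeR adjusted p = 0.0156) and 0.32 ± 0.13 in WT, where it did not pass (adjusted p = 0.082). With the pool as a block in the model, the WT change passed too (0.33, adjusted p = 0.0111 with pool as a fixed term and 0.0212 as a random effect), and it also passed without the medium library of WT pool 17 (0.44, adjusted p = 0.0317). The Scnn1b-Tg call was lost without the medium library of pool 17 (0.36, adjusted p = 0.0868), the medium library of pool 18 (0.43, adjusted p = 0.0565) or the LPS library of pool 19 (0.39, adjusted p = 0.0624).

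Nr1h3, the LXR that is enriched in macrophages, liver and fat, was at 84.7, 87.1 and 65 CPM in WT medium and 73.9, 79.7 and 64.5 CPM in WT LPS. In Scnn1b-Tg AMs its values were 78.8, 80.1 and 74.1 CPM in medium and 80.6, 72.3 and 68.8 CPM with LPS. The groups overlapped in both genotypes. The log2 fold changes were -0.11 in WT (95% interval -0.30 to 0.08) and -0.08 in Scnn1b-Tg (-0.27 to 0.11), which in LPS to medium ratios run from 0.811 to 1.05 and from 0.832 to 1.08. Exons of Nr1h3 share 34 bases with the predicted gene Gm13783, and counting ignored strand.

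Because both receptors bind the same partner and similar DNA elements, their balance was also computed per library as the share of Nr1h3 in the sum of both, per kilobase. The level of this share, unlike the direction of its change, rests on the merged exon lengths. The share was 54.3, 51.2 and 49.2% in WT medium and 46.8, 45.2 and 39.8% in WT LPS. In Scnn1b-Tg it was 55.5, 51.7 and 45.4% in medium and 46.5, 41.5 and 37.1% with LPS. The share fell in all 6 pools, with LPS minus medium differences of -10.3 to -5.97 percentage points and a mean of -8.4 (two-sided exact sign-flip permutation test over pools, p = 0.0312, the smallest that 6 pools allow). By pool, Nr1h2 rose by 0.22 to 0.55 on the log2 scale and Nr1h3 changed by -0.20 to 0.03. The direction and p of the share were thus fixed by these changes and add no separate evidence. The mean difference was -7.47 points in batch 1 and -9.33 in batch 2. The genotypes did not differ beyond the spread in this share, with a difference of -0.668 points in medium (exact permutation p = 1) and -2.25 points in LPS (p = 0.6, where 3 against 3 libraries cannot go below 0.1).

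Abca1, the transporter that loads cholesterol and phospholipid onto lipid-poor apolipoprotein A-I, was at 16.1, 22.1 and 14.8 CPM in WT medium and at 52.3, 96.1 and 65.8 CPM in WT LPS. In Scnn1b-Tg AMs it was at 25.4, 18.6 and 11.8 CPM in medium and at 102, 68.9 and 46.3 CPM with LPS. The lowest LPS library held more than the highest medium library, also across genotypes. The log2 fold change was 2.03 ± 0.27 in WT (edgeR adjusted p = 0.000182), a 4.08-fold rise with a 95% interval of 2.7 to 6.19. In Scnn1b-Tg it was 1.95 ± 0.27 (edgeR adjusted p = 0.000175), a 3.87-fold rise with an interval of 2.56 to 5.85.

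The pools differed more in their level of Abca1 than in its response. The highest of the 6 medium libraries held 2.15 times as much as the lowest, and the same ratio among the LPS libraries was 2.2, while the fold rise within a pool ran from 3.25 to 4.42. Pool 17 was the highest for Abca1 in medium and in LPS in each genotype, and WT pool 16, of the same batch, was not. A call for Abca1 was kept under each of the 22 alternatives to the model and libraries in both genotypes.

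Abcg1, which passes cholesterol on to mature high-density lipoprotein and is needed for lipid balance in AMs, was the member with the highest level per kilobase at rest and fell in every pool. It was at 293, 324 and 304 CPM in WT medium and at 128, 174 and 138 CPM in WT LPS. In Scnn1b-Tg AMs it went from 404, 315 and 373 CPM in medium to 149, 112 and 114 CPM with LPS. The log2 fold change was -1.07 ± 0.12 in WT (edgeR adjusted p = 6.31e-05, a 2.09-fold fall) and -1.55 ± 0.13 in Scnn1b-Tg (edgeR adjusted p = 2.87e-06, a 2.93-fold fall). It was -1.05 in batch 1 and -1.13 in batch 2 in WT, and -1.44 and -1.60 in Scnn1b-Tg. These calls, too, were kept under all 22 alternatives.

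The opposite moves of the exporters were measured as a log2 ratio of Abca1 over Abcg1 per kilobase. In medium it was -4.69, -4.38 and -4.86 in WT and -4.49, -4.59 and -5.49 in Scnn1b-Tg, so Abcg1 transcripts far outnumbered those of Abca1. With LPS it was -1.79, -1.37 and -1.58 in WT and -1.05, -1.20 and -1.80 in Scnn1b-Tg, and Abcg1 still led in every library. The ratio rose in all 6 pools, by 2.90 to 3.68 and by 3.28 on average (exact sign-flip permutation p = 0.0312, the smallest possible), which is 7.47 to 12.8-fold. Because Abca1 rose and Abcg1 fell in every pool, this direction and p were fixed by those results and add no separate evidence. The mean rise of the ratio was 3.12 in batch 1 and 3.45 in batch 2. It averaged 3.50 in Scnn1b-Tg and 3.06 in WT, and although the pools of the genotypes did not overlap, the exact permutation test gave p = 0.1, the smallest that 3 against 3 allow.

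**Figure D2:**
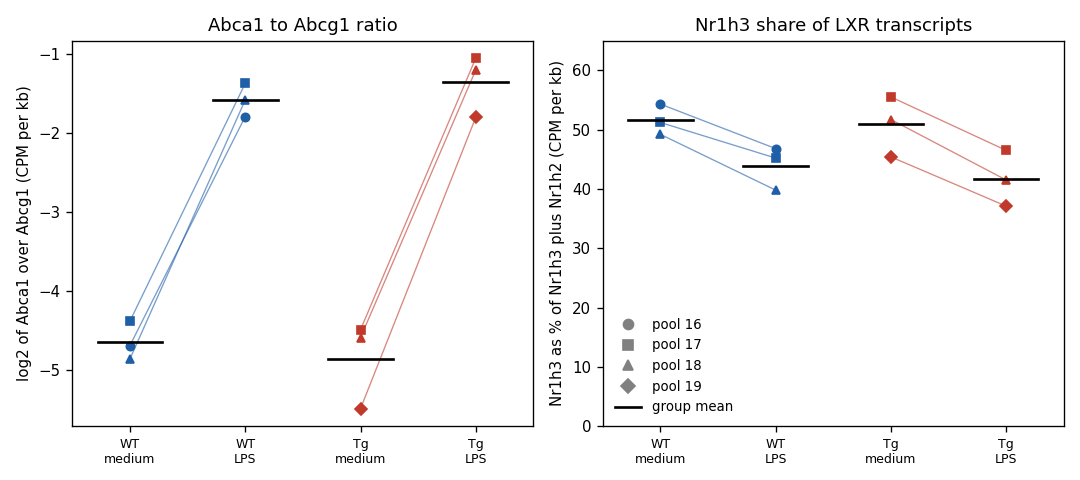
Left, log2 of the Abca1 to Abcg1 ratio, and right, Nr1h3 as a percentage of Nr1h3 plus Nr1h2, both from CPM per kilobase; points are libraries, lines join the libraries of 1 pool, and black bars are group means (Tg, Scnn1b-Tg). The ratio rises from between -5.49 and -4.38 in medium to between -1.80 and -1.05 with LPS, and the Nr1h3 share falls along every line.

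Apoe encodes apolipoprotein E, which macrophages secrete as an acceptor for exported cholesterol. It was at 6.3, 14.2 and 9.46 CPM in WT medium and at 5.17, 4.86 and 3.06 CPM in WT LPS. In Scnn1b-Tg it was at 16.5, 3.96 and 10.7 CPM in medium and at 5.23, 3.23 and 4.74 CPM with LPS. Apoe was lower with LPS in all 6 pools, but unevenly. The log2 difference was -1.54, -1.62 and -1.65 in WT pool 17, WT pool 18 and Scnn1b-Tg pool 17 and -1.17 in Scnn1b-Tg pool 19, and it was -0.28 and -0.29 in WT pool 16 and Scnn1b-Tg pool 18, the pools with the lowest Apoe in medium. The groups did not overlap in WT and did in Scnn1b-Tg.

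The fitted log2 fold change of Apoe was -1.23 ± 0.39 in WT (edgeR adjusted p = 0.0341) and -1.17 ± 0.39 in Scnn1b-Tg (adjusted p = 0.0352). Its WT call was lost without any 1 of the medium libraries of pools 17 and 18 or the LPS libraries of pools 16, 17 and 18 (adjusted p 0.0692 to 0.142). The Scnn1b-Tg call was lost without the medium library of pool 17 or 19 or the LPS library of pool 17 or 18 (0.101 to 0.174). Both calls were also lost without the low-count filter (0.0666 and 0.0635) and without the batch term (0.0764 and 0.0539), and the Scnn1b-Tg call when its groups were fitted alone (0.0505). The sum of 10 interstitial macrophage markers moved with Apoe. It was 12.4 to 18.5 CPM in medium and 2.26 to 3.73 CPM with LPS, and of the 6 that could be tested 3 fell in WT, 2 fell in Scnn1b-Tg and 0 rose. Cx3cr1, Tmem119, Lyve1 and Folr2 were too low to test, at or under 0.243 CPM in every library. C1qa, C1qb and C1qc, defining genes of those cells, were at or under 1.56 CPM in every library, and the part of other macrophages in the Apoe change was not tested.

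Mylip (also Idol) encodes a ubiquitin ligase that limits cholesterol uptake. It was at 39.2, 41.5 and 37 CPM in WT medium and at 26.3, 31.6 and 27.8 CPM in WT LPS, without overlap. In Scnn1b-Tg AMs it was at 33.4, 27.8 and 30.1 CPM in medium and at 32.1, 24.5 and 24.7 CPM with LPS, with overlap. The log2 fold change was -0.46 ± 0.10 in WT (edgeR adjusted p = 0.0045), kept under all 22 alternatives, and -0.17 ± 0.10 in Scnn1b-Tg (adjusted p = 0.197), which passed at 0.0469 when libraries were scaled by their totals alone. Mylip fell in 6 of 6 pools, by 0.39 to 0.57 in WT and by 0.06 to 0.28 in Scnn1b-Tg.

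Lpcat3, which puts polyunsaturated fatty acids into membrane phospholipids, was at 82.3, 80.3 and 76.9 CPM in WT medium and 69.6, 77 and 48.4 CPM in WT LPS. Its Scnn1b-Tg values were 81.4, 69.1 and 66 CPM in medium and 67.2, 65.5 and 59 CPM with LPS. All 6 pools were lower with LPS, yet the groups overlapped in both genotypes. The log2 fold change was -0.32 ± 0.11 in WT (edgeR adjusted p = 0.0479) and -0.17 ± 0.11 in Scnn1b-Tg (adjusted p = 0.257). The WT call stood at the threshold and was lost in 14 of 22 alternatives (adjusted p 0.0516 to 0.235 in those), among them the fit with the replicate number as a block (0.0527) and the removal of any 1 of 10 libraries (all except the LPS libraries of WT pool 17 and Scnn1b-Tg pool 18). A share of 10.22% of the merged exons of Lpcat3, 334 bases, overlaps Emg1 on the other strand.

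**Figure D3:**
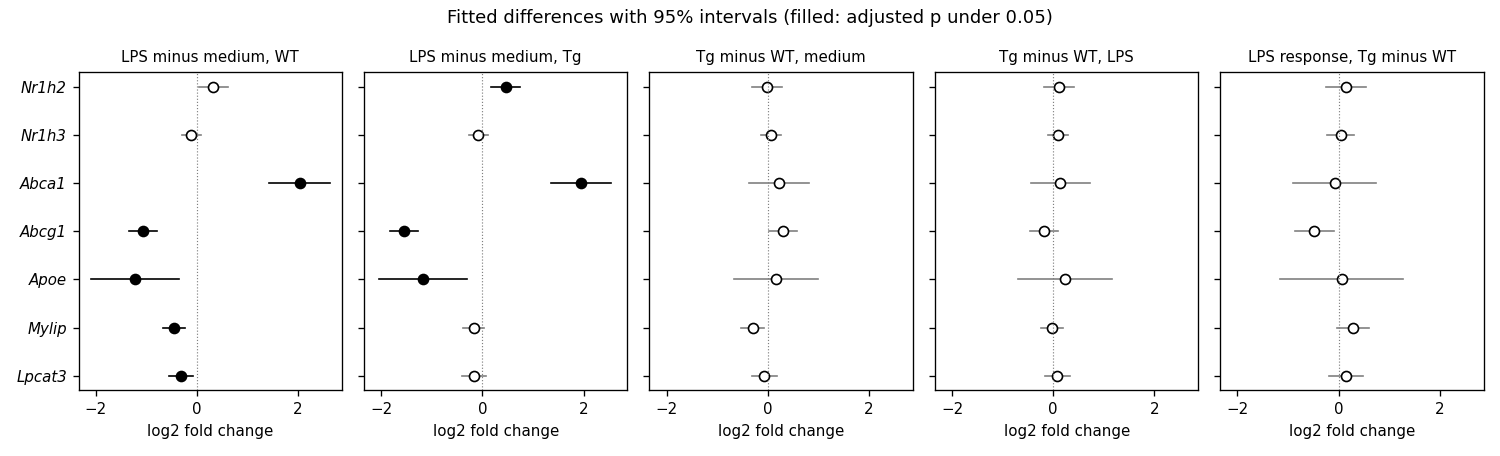
Fitted log2 fold changes (points) with 95% intervals (lines) of the 7 genes in 5 comparisons; filled points have an edgeR adjusted p under 0.05, and Tg is Scnn1b-Tg. Filled points appear in the 2 LPS comparisons at left, 5 in WT and 4 in Scnn1b-Tg, and none in the 3 comparisons that involve the genotype.

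The genotypes were compared to ask whether AMs from mucus-obstructed lungs differ in this pathway at rest or after LPS. None of the 7 genes passed in either treatment or in the test of the difference between LPS responses. Over all genes, edgeR called 0.335% in medium, 0.051% in LPS and 0% for the difference between responses. DESeq2 called 0 of the 7 as well. At an unadjusted p under 0.05, 2 of the 7 genes passed in medium (13.4% of all genes did), 0 in LPS (7.12%) and 1 in the difference between responses (5.95%).

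Abcg1 and Mylip were the genes behind these counts, and they leaned in opposite directions. Abcg1 averaged 364 ± 45.1 CPM in Scnn1b-Tg medium and 307 ± 15.6 CPM in WT medium, with overlap (log2 difference 0.31 ± 0.13, edgeR adjusted p = 0.321), and its values with LPS were 125 ± 20.9 and 147 ± 24.5 CPM. Its log2 change by pool was -1.71 to -1.44 in Scnn1b-Tg and -1.20 to -0.89 in WT, which did not overlap. The fitted difference between the responses was -0.48 ± 0.17 (95% interval -0.87 to -0.10, edgeR adjusted p = 0.718), and it was -0.39 within batch 1 and -0.47 within batch 2. Mylip averaged 30.5 ± 2.81 CPM in Scnn1b-Tg medium and 39.2 ± 2.23 CPM in WT medium, the member whose medium libraries did not overlap between genotypes (9.38% of all genes did so in that direction). Its log2 difference was -0.30 ± 0.10 (edgeR adjusted p = 0.236). Batch 1 alone gave -0.27 and batch 2 alone -0.35. The Mylip responses by pool did not overlap either, and the fitted difference between them was 0.28 ± 0.14 (adjusted p = 0.866). With LPS the log2 difference between genotypes was -0.02 for Mylip and -0.18 for Abcg1. The comparison in medium and that of the responses use the same medium libraries, so they are not separate evidence. Changes by pool that did not overlap between the genotypes were seen in 16.2% of all genes tested.

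For the other members the genotype difference in medium came with these intervals. It was 0.22 for Abca1 (95% interval -0.38 to 0.82), 0.17 for Apoe (-0.66 to 1.00), 0.06 for Nr1h3 (-0.14 to 0.26), -0.02 for Nr1h2 (-0.32 to 0.28) and -0.07 for Lpcat3 (-0.31 to 0.18). Apoe differed by 0.80 in batch 1 and by -0.54 in batch 2, with opposite signs. Epithelial markers summed to 94.2 to 115 CPM in WT medium and 47.2 to 83.4 CPM in Scnn1b-Tg medium, with 0 of 9 tested called, and their part in the genotype differences was not tested.

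Some of the partners and coregulators of LXRs were lower with LPS. Of 15 listed RXRs, corepressors and coactivators, 14 were tested, of which 0 rose and 5 fell in WT and 0 rose and 7 fell in Scnn1b-Tg (median log2 fold change -0.26 and -0.47). Beside these counts and those of the lists below stand the shares over all genes tested. They were 15.5% higher and 16.2% lower in WT, and 19.3% higher and 18.7% lower in Scnn1b-Tg. Rxrb, an RXR subtype, was at 29.6, 36.2 and 33.7 CPM in WT medium and 24.8, 24.8 and 24.2 CPM in WT LPS, and its fall was -0.43 ± 0.10 in WT (edgeR adjusted p = 0.00556) and -0.69 ± 0.10 in Scnn1b-Tg (adjusted p = 0.000177). The coactivator gene Ncoa1 fell by 0.67 and by 0.91 on the log2 scale. Tbl1xr1, which helps exchange corepressors for coactivators, fell by 0.60 and by 0.88, and its relative Tbl1x by 0.46 and by 0.52. The corepressor gene Ncor1 had values of -0.08 and -0.14 that did not pass. Rxra, the RXR subtype with more reads than Rxrb, averaged 182 ± 37 CPM in WT medium and 106 ± 22.6 CPM in WT LPS, without passing. In Scnn1b-Tg it averaged 147 ± 44.5 and 108 ± 49.3 CPM, with overlap. The coactivator genes Med1 (29.6 and 35.6 CPM) and Crebbp (47.7 and 57.9 CPM) had higher means with LPS in WT, without passing.

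Enzymes that make and break LXR ligands showed the widest range. Ch25h, which makes 25-hydroxycholesterol, was at 107, 99.2 and 162 CPM in WT medium and 312, 272 and 439 CPM in WT LPS. In Scnn1b-Tg it was at 101, 173 and 169.7 CPM in medium and 337, 730.1 and 632 CPM with LPS. The log2 fold change was 1.48 ± 0.10 in WT (edgeR adjusted p = 1.38e-06) and 1.91 ± 0.10 in Scnn1b-Tg (adjusted p = 1.59e-07), and the difference between the responses was 0.43 ± 0.14 (adjusted p = 0.67). Exons of Ch25h overlap Gm26902 on the other strand by 159 bases.

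Cyp27a1, which makes 27-hydroxycholesterol, went the other way and is named after its values were seen, since its mean lies under the 5 CPM set for named genes. It held 62, 42 and 145 counts in WT medium and 0 counts in all 3 WT LPS libraries, a fall of at least 10.8-fold against a floor of 8 counts per library, the worth of 3 reads. In Scnn1b-Tg it held 141, 284 and 367 counts in medium and 10, 15 and 17 counts with LPS, a log2 fold change of -4.20 ± 0.26 (edgeR adjusted p = 2.04e-06). In medium its CPM was 0.856 to 2.91 in WT and 2.41 to 6.86 in Scnn1b-Tg, a log2 difference of 1.18 ± 0.20 that did not pass (adjusted p = 0.0601). Its size was 1.28 within batch 1 and 1.05 within batch 2. Of the 9 ligand enzymes tested, 1 rose (Ch25h) and 6 fell in WT, and 1 rose and 5 fell in Scnn1b-Tg, with medians of -0.47 (also with Cyp27a1 at its bound) and -0.42. The synthesis gene Cyp51 fell in both genotypes (-0.50 ± 0.14 and -0.58 ± 0.14), and Sc5d (-0.47 ± 0.15) in WT. In Scnn1b-Tg, Sc5d was at -0.39 ± 0.15 (edgeR adjusted p = 0.0647) and passed with the replicate number or the pool as a block (-0.40, adjusted p 0.0121 to 0.0181). Without the medium or the LPS library of WT pool 18 the WT calls of Cyp51 (edgeR adjusted p = 0.102 and 0.0929) and Sc5d (0.149 and 0.174) were lost. The Sc5d call was also lost without the medium library of WT pool 16 or the LPS library of WT pool 17. Hsd3b7, which metabolises oxysterols, fell by 0.46 in WT and by 0.51 in Scnn1b-Tg on the log2 scale, but 9430064I24Rik and Gm49388 overlap much of its exons, so its reads cannot be assigned safely.

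Among other known LXR targets, falls outnumbered rises. Of 17 tested, 1 rose (Arl4c, named after its values were seen), 8 fell and 8 did not pass in each genotype, with medians of -0.62 in WT and -0.50 in Scnn1b-Tg. All genes tested gave 15.5% higher and 16.2% lower in WT, and 19.3% higher and 18.7% lower in Scnn1b-Tg. Mertk, a receptor for the uptake of dying cells, was at 169.5, 181 and 158 CPM in WT medium and 35.5, 47.4 and 31.9 CPM in WT LPS, and at 232, 178 and 233 CPM in Scnn1b-Tg medium and 46.2, 29.4 and 39.8 CPM in Scnn1b-Tg LPS. Its log2 fold change was -2.16 ± 0.15 in WT (edgeR adjusted p = 1.56e-06) and -2.49 ± 0.16 in Scnn1b-Tg (adjusted p = 3.87e-07). Smpdl3a, a phosphodiesterase related to acid sphingomyelinase, fell by 2.11 and by 1.96, and the fatty acid desaturase genes Fads1 (-1.28 and -0.93) and Scd2 (-0.96 and -1.13) fell too. Arl4c, a small GTPase tied to cholesterol transport, was at 0.68 to 1.12 CPM in WT medium and 1.3 to 3.87 CPM in WT LPS (log2 fold change 1.58 ± 0.32, edgeR adjusted p = 0.00326) and rose by 0.90 ± 0.32 in Scnn1b-Tg (adjusted p = 0.0485). The Scnn1b-Tg call of Arl4c was lost in 11 of 22 alternatives, 8 of them the removal of 1 library (all except the medium library of WT pool 16, the LPS libraries of WT pools 17 and 18 and the LPS library of Scnn1b-Tg pool 19), with adjusted p up to 0.179. Srebf1, a master gene of fatty acid synthesis and a classic LXR target, had values of 0.20 and 0.09 that did not pass.

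**Figure D4:**
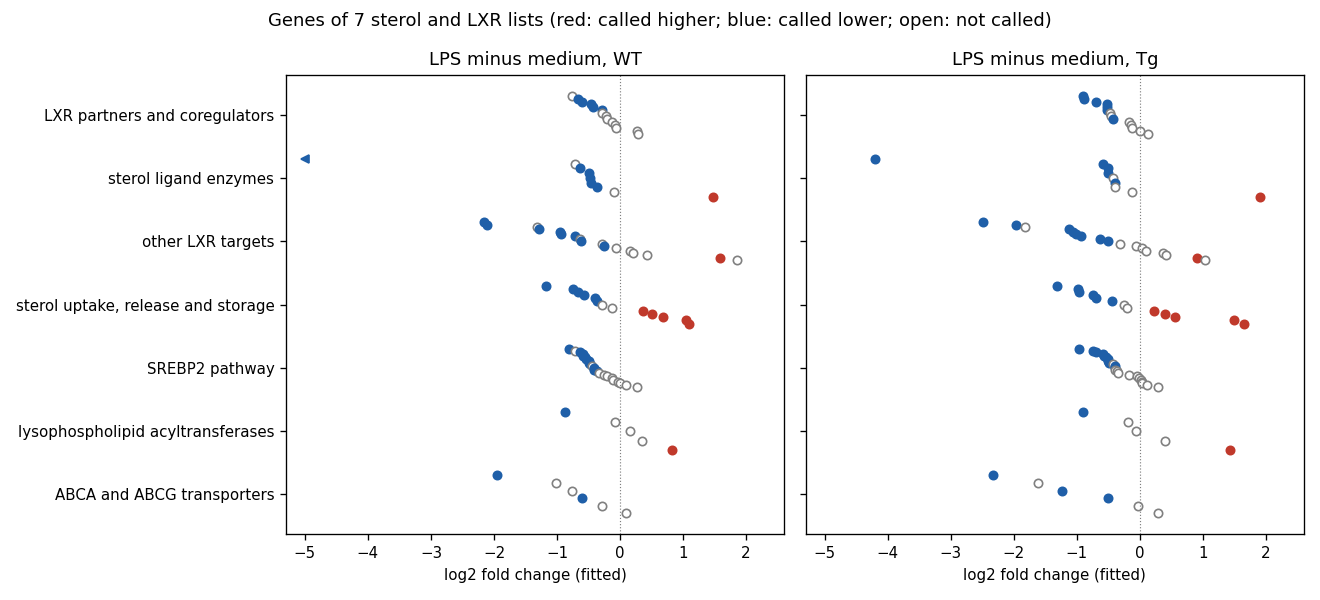
Each point is a gene of 1 of 7 lists, plotted by its fitted log2 fold change with LPS in WT (left) and Scnn1b-Tg (Tg, right); red points passed as higher, blue as lower (edgeR adjusted p under 0.05) and open points did not pass. The arrowhead at the left edge stands for Cyp27a1 in WT, which was at 0 in all WT LPS libraries; most lists lie left of 0, with rises in ligand enzymes (Ch25h) and sterol uptake (Msr1, Lrp8).

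Lpl, lipoprotein lipase and an LXR target in macrophages, was the one gene of the 7 lists that passed between the genotypes. It was at 3856, 3815 and 4423 CPM in WT medium and 2748, 3027 and 2793 CPM in Scnn1b-Tg medium, without overlap. The log2 difference was -0.52 ± 0.07 (edgeR adjusted p = 0.0219). Within batch 1 it was -0.48, and within batch 2 -0.61. With LPS its difference was -0.25 ± 0.07 (adjusted p = 0.355). The call in medium was lost without the medium library of WT pool 16 or 18 or of Scnn1b-Tg pool 17 or 19 (adjusted p 0.0639 to 0.171), and when the medium libraries were fitted alone (0.0693), with a log2 difference of -0.55 to -0.48 over the alternatives.

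Genes for taking up, releasing and storing sterol moved both ways with LPS. Of 13 tested, 5 rose and 6 fell in each genotype, with medians of -0.28 and -0.25. Among receptors, the scavenger receptor gene Msr1 rose by 1.10 ± 0.25 in WT (edgeR adjusted p = 0.00541) and by 1.50 ± 0.25 in Scnn1b-Tg (adjusted p = 0.000643), and Lrp8 by 1.05 and 1.65. In contrast, Nceh1, which frees cholesterol from stored esters, fell by 1.18 and by 1.31, Soat1, which makes those esters, by 0.75 and by 0.98, and Plin2, a lipid droplet coat gene, by 0.67 and by 0.75. Lrp1, a large receptor for apolipoprotein E particles, fell by 0.39 in WT and by 0.97 in Scnn1b-Tg. The WT call of Lrp1 was lost without the medium library of WT pool 17 or 18 or the LPS library of WT pool 16 (edgeR adjusted p = 0.0607, 0.111 and 0.0671).

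The cholesterol synthesis programme, run by SREBP2 and usually opposite to LXR, did not rise. Of 23 tested genes, 0 rose and 12 fell in WT and 0 rose and 11 fell in Scnn1b-Tg, with medians of -0.41 and -0.39. The shares of all genes tested that fell were 16.2% in WT and 18.7% in Scnn1b-Tg, and 15.5% and 19.3% rose. Hmgcs1, an early enzyme of the pathway, fell by 0.81 in WT (edgeR adjusted p = 0.000399) and by 0.96 in Scnn1b-Tg (adjusted p = 8.51e-05), Mvk by 0.59 and by 0.51, and Idi1 by 0.49 and by 0.70, while Sqle fell by 0.75 in Scnn1b-Tg. The WT call of Idi1 was lost without the medium library of WT pool 18 (edgeR adjusted p = 0.06), and the Scnn1b-Tg call of Mvk without the medium library of pool 19 (0.0591) or the LPS library of pool 17 (0.0581). Sqle stood at -0.45 in WT (edgeR adjusted p = 0.0508) and passed there with the replicate number or the pool as a block (adjusted p 0.0273 to 0.0457). Exons of Hmgcs1 and Idi1 overlap genes on the other strand. Srebf2 itself had values of 0.00 and -0.04 that did not pass.

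Relatives of the members did not always share their direction. Lpcat2 and Lpcat1 moved apart, no ABCA or ABCG relative passed as higher with Abca1, and Abcg2 fell as Abcg1 did. Among 5 other acyltransferase genes tested beside Lpcat3, Lpcat2, which makes platelet-activating factor, rose by 0.83 ± 0.14 in WT (edgeR adjusted p = 0.000805) and by 1.43 ± 0.14 in Scnn1b-Tg (adjusted p = 1.06e-05), and Lpcat1, a surfactant lipid enzyme, fell by 0.87 and by 0.90. Among 6 other ABCA and ABCG transporters tested, 0 rose, 2 fell in WT and 3 in Scnn1b-Tg. Abcg2, an exporter of drugs and urate, went from 15.8, 17.2 and 14.2 CPM to 4.31, 3.57 and 4.21 CPM in WT and from 24, 22.5 and 25.1 CPM to 4.74, 5.02 and 4.5 CPM in Scnn1b-Tg. Abca2 fell by 0.61 and by 1.24, and Abca7 fell by 0.50 in Scnn1b-Tg, a call lost without any 1 of 5 Scnn1b-Tg libraries (all except the LPS library of pool 17, edgeR adjusted p 0.0544 to 0.148).

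Over the 12 libraries, which share treatment, batch and depth, Abca1 and Abcg1 ran against each other (Pearson r = -0.83 of log2 CPM), as did Nr1h2 and Abcg1 (-0.79), while Abcg1 ran with Apoe (0.77) and Nr1h3 with Lpcat3 (0.67). These values describe 4 groups of 3 and carry no test. The inverse values of Abca1 and Abcg1 follow their opposite moves with LPS. Within each of the 4 groups, pool 17 held the highest value of both genes. With LPS, Abca1 and Abcg1 were at 96.1 and 174 CPM in WT pool 17 and at 102 and 149 CPM in Scnn1b-Tg pool 17. Of 9101 genes averaging 5 CPM or more, the pattern most like Abcg1 was that of Slc6a6, the taurine transporter gene (r = 0.995, group means of 1393 and 762 CPM without and with LPS in WT, and 1577 and 697 CPM in Scnn1b-Tg), followed by Sulf2 and Smarcal1 (both 0.99). The genes most like Abca1 were Abcc5, another ABC transporter (0.98, 549.5 and 1000.1 CPM in WT medium and LPS), Plagl2 (0.97) and Plxnd1 (0.97). Nr1h2 was closest to Zfp653 (0.94), Lemd2 and Cttn (both 0.92), and Apoe to Spin1 (0.94), Prps2 (0.93) and Exoc3 (0.91). Mylip was closest to Tcf12 (0.94), which stood at 36.6 CPM in WT medium against 23.1 CPM after LPS and at 24.9 and 20.3 CPM in the same treatments of Scnn1b-Tg, and then to Casd1 and Oxr1 (both 0.93). Lpcat3 was closest to Sh3bgrl (0.98), Ccnb1 (0.94) and Dstn (0.93). Nr1h3, the member that moved least, had no gene above 0.86, the value of Dse, Agps and Clpb.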

How the data were processed

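Airway macrophage RNA was sequenced as 125-bp read pairs. Per the methods, the authors aligned reads with HISAT2 to mm10, assembled and quantified them with StringTie on GENCODE and deposited estimated counts per gene. The labels describe adherent lavage cells, the methods sorted cells. Symbols and exon lengths came from GENCODE M21 (20132 of 20551 IDs matched, and the 419 others held 0.258% of counts). Values of 1 to 30 fell mostly (55.3%) on 0 or 3 modulo 5 (2 of 5 residues), so 1 read was taken as 2.5 counts, and a floor of 8 counts per library stands for 3 reads (0.137 to 0.163 CPM, counting error only).

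Counts were tested in R 4.3.3 with edgeR 4.0.16 (TMM scaling, quasi-likelihood F test) on all 12 libraries with group and batch terms, for 13729 genes that passed filterByExpr (minimum count 10, minimum total 15). P-values were adjusted over all genes tested by the Benjamini-Hochberg method at 0.05. Log2 CPM used a prior count of 2. CPM came from library totals scaled by TMM, and intervals are 95%. The fit was tested on simulated counts with seeded changes. Only pools replicate a group, 3 in each. The edgeR p-values rest on the residual spread over all 12 libraries, shared by the groups and moderated across genes. The main fit left out the pairing of medium and LPS libraries by pool. The test per pool was an exact sign-flip permutation test, and between genotypes an exact permutation test, both two-sided.

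Alternatives were DESeq2 1.42.0, scaling by totals, no filter, no batch term, counts divided by 5, a fit of the compared groups alone, a replicate-number or pool block (limma 3.58.1 for the random effect) and each library left out. The titles give the medium and LPS libraries of a genotype the same pool numbers, which pairs them. Deviations from group means correlated at 0.137 to 0.335 within a pool (highest with another pool, 0.027 to 0.175), but at -0.242 to 0.151 once batch was removed too, so the data add little to the titles on the pairing.

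Members and lists were chosen with earlier results of these data known. Named were all members, from each list up to 3 largest rises and falls with LPS per genotype among called genes with a mean of at least 5 CPM, listed genes called between genotypes, and the 3 genes most correlated with each member. Some genes that met this rule are not reported here. Promoters are RefSeq windows of GRCm38.p6, 250 bases before to 50 after a start. Python 3.11.15, numpy 2.4.6, pandas 2.3.3 and matplotlib 3.10.9 were used.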

Additional observations from a re-analysis of the deposited data

How the results depend on the processing

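Abca1 and Abcg1 kept their direction and call in both LPS comparisons, and Mylip in WT, under all 22 alternatives. The number of members called with LPS was 3 in WT without the low-count filter and 3 without the batch term, 3 to 5 with 1 library left out in WT, and 2 to 4 with 1 left out in Scnn1b-Tg. With the replicate number as a block it was 5 in WT (Nr1h2 gained, Lpcat3 lost) and with the pool as a block 6 (Nr1h2 gained), and the block changed no other call of a member, while Sqle in WT and Sc5d in Scnn1b-Tg gained calls. Without a batch term the WT calls of Apoe, Lpcat3, Scd2, Idi1, Cyp51, Sc5d, Hsd3b7, Tbl1x and Tbl1xr1 and the Scnn1b-Tg calls of Apoe, Arl4c, Cyp51, Idi1 and Scd2 were among those lost. No member passed between the genotypes or in the interaction under any alternative, although DESeq2 called 501 genes in medium, 146 in LPS and 77 in the interaction where edgeR called 46, 7 and 0. Scaling by totals alone moved the median LPS change of all genes from -0.015 to -0.117 in Scnn1b-Tg.

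Uncalled genotype differences changed sign in places, and the cause was not tested. In medium, without the batch term, Nr1h3 was -0.02 and Nr1h2 0.03, and Apoe was -0.20 with the replicate block. With 1 library left out, medium differences ran from -0.06 to 0.16 for Nr1h3, -0.22 to 0.11 for Nr1h2, -0.19 to 0.49 for Apoe and -0.10 to 0.02 for Lpcat3. In LPS, Lpcat3 was -0.02 without the batch term and Apoe -0.17 with the replicate block, and leaving out 1 library gave -0.08 to 0.34 for Abca1, -0.13 to 0.06 for Mylip and -0.10 to 0.17 for Lpcat3. For the interaction, Apoe was -0.05 without the batch term and -0.01 with the pool as a random block, and leaving out 1 library gave -0.04 to 0.11 for Nr1h3, -0.33 to 0.10 for Abca1 and -0.32 to 0.41 for Apoe. Without 1 pool the fall of the Nr1h3 share was -8.88 to -8.02 points and the rise of the Abca1 to Abcg1 ratio 3.20 to 3.36, both at p = 0.0625, the smallest exact permutation p that 5 pools allow. The genotype difference of the share ran from -2.98 to 2.07 points in medium and from -4.66 to 0.0483 in LPS, and that of the ratio from -0.40 to 0.10 in medium. The looser element search, added after seeing the data, gave 1 promoter in place of 0.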

Other observations

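Beyond the members and Lpl, several genes of the sterol lists leaned apart between the genotypes in medium without passing the test. Abcg2 was at 24, 22.5 and 25.1 CPM in Scnn1b-Tg and at 15.8, 17.2 and 14.2 CPM in WT (log2 difference 0.61, edgeR adjusted p = 0.055). Abca2 (0.59, adjusted p = 0.133), Abca7 (0.60, 0.181), Lrp1 (0.46, 0.137) and Rxrb (0.33, 0.183) also lay higher in Scnn1b-Tg, and the scavenger receptor gene Cd36 (-0.43, 0.108) and Lrp8 (-0.57, 0.164) lay lower. Of these, Abcg2, Abca2, Lrp1 and Rxrb were among the genes that fell with LPS in both genotypes, and Lrp8 rose in both. These genes were picked after their values were seen, and none passed in edgeR after adjustment.

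The lowest value of a member, that of Apoe in the LPS library of WT pool 18, was 3.06 CPM, and each group held 3 pools. Pooling of 3 to 4 animals and a single time of 12 h were shared by all groups. Transcript levels do not give receptor activity, protein or cholesterol efflux.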
